A study of Mus musculus with 2 samples.

Results

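CTCF peaks were described around Myc and across the long stretch beyond it that holds few protein-coding genes. The members are the deposited peaks of chromosome 15 (build mm9) whose midpoint lies between 61000000 and 64000000. There were 30 such peaks among the 44424 of embryonic stem (ES) cells and 46 among the 53736 of mouse embryonic fibroblasts (MEFs). The study mapped CTCF by chromatin immunoprecipitation and sequencing, with 1 library per cell type and no replicates. ES cells are pluripotent cells of the early embryo, and MEFs are cultured connective-tissue cells taken from embryos past the early stages. The ES cells are labelled with the genetic background Bl3.10 and C57BL and the MEFs with C57BL6. Both were grown in DMEM with fetal calf serum, and both libraries used the same Millipore antibody against CTCF. No cell line, animal or treatment is named in the labels. A difference between cell types cannot be told apart from one between backgrounds or libraries, and the peak lists hold no expression values against which the cell type labels could be checked.

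CTCF is a zinc-finger protein that binds DNA at insulators and stops the sliding of cohesin, so that pairs of CTCF sites often mark the ends of chromatin loops. Myc encodes a transcription factor that drives cell growth and division. The Myc promoter is controlled by enhancers that are spread over the surrounding gene-poor DNA and differ between tissues, and CTCF bound close to the promoter is known to take part in such contacts. Pvt1 is a long non-coding RNA gene just downstream of Myc, named for plasmacytoma translocations that break within it.

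Myc was placed at 61.817 to 61.822 Mb, given to the nearest 1 kb, and Pvt1 at about 61.87 to 62.10 Mb. Distances below run from the Myc start to the midpoint of a peak and carry that 1 kb resolution, whereas distances between peaks are exact. The gene reads towards higher coordinates. In the RefSeq gene order of another build (GRCm38.p6, used for order only), the nearest protein-coding genes are A1bg before Myc and Gsdmc after it. Pvt1 is the first gene after Myc. It is among the 16 genes listed between Myc and Gsdmc, of which 9 are long non-coding RNAs and 5 are pseudogenes. Gsdmc2, Gsdmc3 and Gsdmc4, which like Gsdmc belong to the gasdermin family of pore-forming proteins, follow next, and then Cyrib. No peak sequence was analysed here.

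The score of a peak is not defined in the files. It was used only to rank peaks within their own list, with rank 1 for the highest score. Every peak spans 399 bp. Shared peaks are those with at least 1 bp in common with any peak listed for the other cell type. The other peaks are called ES-only or MEF-only, which means that no overlapping peak was listed in the other cell type, not that CTCF was absent there. Read depth is unknown. Intervals are 95% intervals for counting error and say nothing of the spread between cultures, which was not measured.

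Inside the Myc gene a dense group of peaks was listed in both cell types. Between the ends of the gene, 5 ES peaks and 5 MEF peaks had their midpoints, and of these 4 ES peaks and all 5 MEF peaks were shared. Of all peaks in the lists, 26.1% (ES) and 21.6% (MEF) were shared. Peaks of the same list overlapped inside the gene, and merging them left 3 ES and 2 MEF peaks. The shared peaks there thus do not count separate sites. Within 50 kb of the Myc start there were 7 ES peaks, 5 of them shared, and 6 MEF peaks, each of them shared. They fell into 5 separate places, and 3 of these places held peaks of both cell types. Whether these places follow the exons of Myc was not tested, and no input or control library was analysed at them, so the listed peaks are not thereby shown to be bound by CTCF. Apart from 1 ES-only peak 10.2 kb upstream, all of them lay in the stretch from 2.30 kb before to 4.67 kb after the Myc start.

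Read from upstream to downstream, the first of these places held the isolated ES-only peak at 61806594 to 61806992. It ranked 32552 of 44424, in the lower part of its list, and the nearest MEF peak was 8.11 kb away. The next place lay just upstream of the gene, where a MEF peak at 61814705 to 61815103 overlapped an ES peak at 61815038 to 61815436. The overlap was only 66 bp, because the ES peak lay 333 bp downstream of the MEF peak. Their ranks stood far apart in their lists. The MEF peak ranked 13638 of 53736, and the ES peak ranked 41595 of 44424, so that 94.2% of ES peaks scored at least as high.

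At the start of the gene an ES-only peak was listed at 61817135 to 61817533, 0.33 kb downstream of the Myc start. It ranked 18125, near the middle of the ES list, and its midpoint was 887 bp from that of the nearest MEF peak. This was the only place inside the gene that was listed in ES cells and not in MEFs. Further in, 2 ES and 3 MEF peaks overlapped each other over 1151 bp, from 61818022 to 61819172. The ES peaks there started at 61818278 and 61818490 and ranked 22067 and 24456. The MEF peaks started at 61818022, 61818394 and 61818774, and ranked 21557, 49624 and 41669. None of these 5 peaks stood high in its list, and neighbouring peaks of the same list overlapped each other there by 19 to 187 bp.

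The last place, near the end of the gene, covered 819 bp from 61820852 to 61821670 and held 2 peaks of each cell type. The MEF peak at 61820852 to 61821250 ranked 1063 and so stood within the highest 2.01% of its list. Its ES partner at 61820919 to 61821317 was offset by 67 bp and ranked 7952, within the highest 18.3%. Both were the highest-ranked peaks of their lists within 50 kb of Myc. The neighbours started at 61821206 in MEFs, with rank 16158, and at 61821272 in ES cells, with rank 32067. These neighbours were offset by 66 bp.

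**Figure D1:**
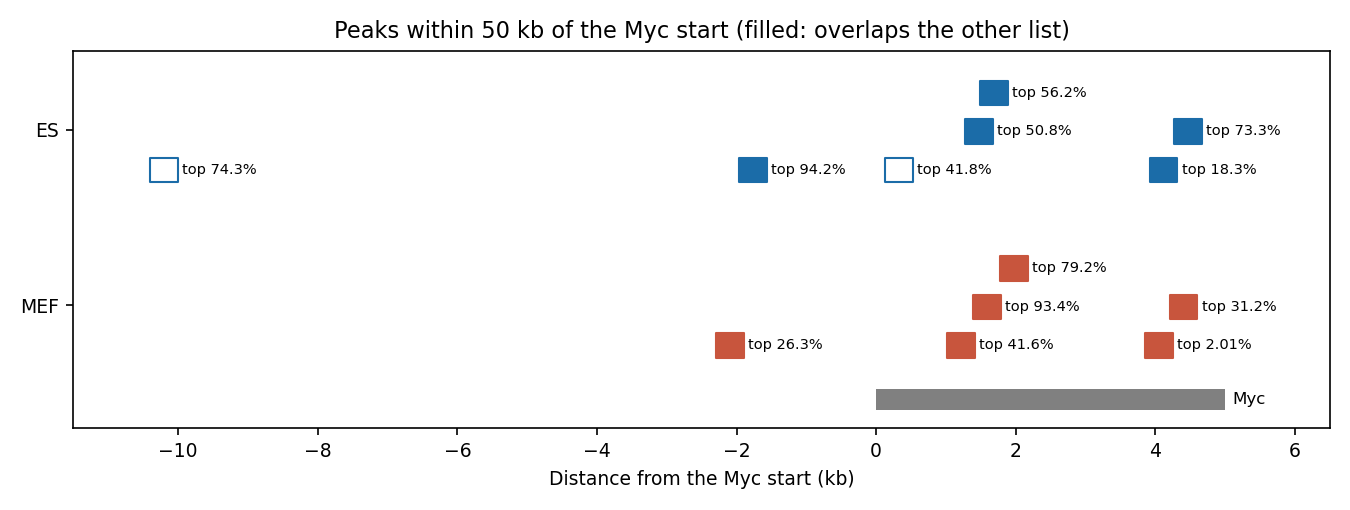
Peaks within 50 kb of the Myc start by distance from it (kb), with ES peaks in the upper and MEF peaks in the lower rows, raised only to keep them apart. Filled boxes overlap the other list, and each label gives the percentage of the list that scored at least as high; 5 ES and 5 MEF peaks lie inside the gene.

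Runs of peaks as close as those in Myc were uncommon in both lists. A run was taken as 5 neighbouring peaks of a list within 5 kb, a definition chosen after the peaks in Myc had been seen. Such runs held 1.64% of all ES peaks and 1.76% of all MEF peaks, and made up 103 places in ES cells and 129 in MEFs. In both cell types the peaks in Myc made up a run of 5, and no other peak of the region was part of a run. Of the 103 ES places, 65 overlapped a MEF run. The run at Myc rests on peaks that overlap neighbours of their own list. With such peaks merged, 3 ES and 2 MEF places were left inside the gene and no run of 5 remained there, while 56 ES and 57 MEF runs were found elsewhere. Merging left 5 ES and 3 MEF places within 50 kb of Myc.

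Across the whole region the shared part of each full list was close to its level in the genome. Of the 30 ES peaks, 8 were shared (26.7%, 95% Wilson interval 14.2 to 44.4), against 26.1% of all ES peaks. Of the 46 MEF peaks, 9 were shared (19.6%, 10.7 to 33.2), against 21.6% of all MEF peaks. In the higher-scoring 50% of each list, 2 of 19 ES peaks of the region (10.5%, 2.94 to 31.4) were shared against 22.1% of that part of the list, and 3 of 20 MEF peaks (15%, 5.24 to 36.0) against 18.3%. With overlapping peaks of a list merged, 6 of 28 ES peaks (21.4%, 10.2 to 39.5) were shared, against 25.4% of the merged list. For MEF peaks it was 6 of 43 (14.0%, 6.56 to 27.3), against 21.0%. All these intervals include the value of the list. The shared peaks were not spread evenly. They lay in 2 groups, one at Myc and the other 1786 to 1911 kb downstream. Within 50 kb of Myc lay 5 of the 8 shared ES peaks and 6 of the 9 shared MEF peaks. Without the peaks within 50 kb of Myc, shared peaks were 3 of 23 in ES cells (13.0%, 4.54 to 32.1) and 3 of 40 in MEFs (7.5%, 2.58 to 19.9). This ES interval includes the 26.1% of the whole list, whereas the MEF interval lies below 21.6%. That exclusion was chosen after the data had been seen, and it removed peaks that were mostly shared.

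The second group of shared sites held 3 pairs that matched more closely than those at Myc. The first pair was at 63603109 to 63603507 in ES cells and at 63603142 to 63603540 in MEFs, 1786 kb from the Myc start. The ES peak ranked 4626 of 44424 and the MEF peak 40774 of 53736. The second pair, at 63660500 in ES cells and 63660510 in MEFs, was offset by 10 bp and stood low in both lists, with ranks 33955 and 45806. The third pair started at 63727528 in ES cells, with rank 9887, and at 63727562 in MEFs, with rank 27623. An ES-only peak at 63727099, with rank 13625, lay 429 bp before the ES peak of that pair. The distances between midpoints in these 3 pairs were 10 to 34 bp. For the 5 shared ES peaks near Myc the distance to the nearest MEF peak was 66 to 333 bp with a median of 96 bp, and the median over all shared ES peaks was 45 bp.

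Between the groups lay 1781 kb with peaks in both cell types and none shared. It held 11 ES peaks and 20 MEF peaks. Its ends were set by the shared peaks themselves, so that none inside could be shared. In the whole lists, 26.1% of ES and 21.6% of MEF peaks were shared. On the other side of Myc, the next shared site was at 60989061 to 60989459 in ES cells and 60989100 to 60989498 in MEFs, 10.7 kb outside the region. There the MEF peak ranked 724 and the ES peak 7763. Between that site and the one just upstream of Myc, 825 kb held 8 ES and 10 MEF peaks. None of them was shared, which again follows from ends set by shared peaks. Next to the other edge of the region, at 64000000, the first peaks outside lay 6.11 kb (ES) and 8.40 kb (MEF) beyond it. The last peaks inside were 108 kb and 25.5 kb from that edge.

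**Figure D2:**
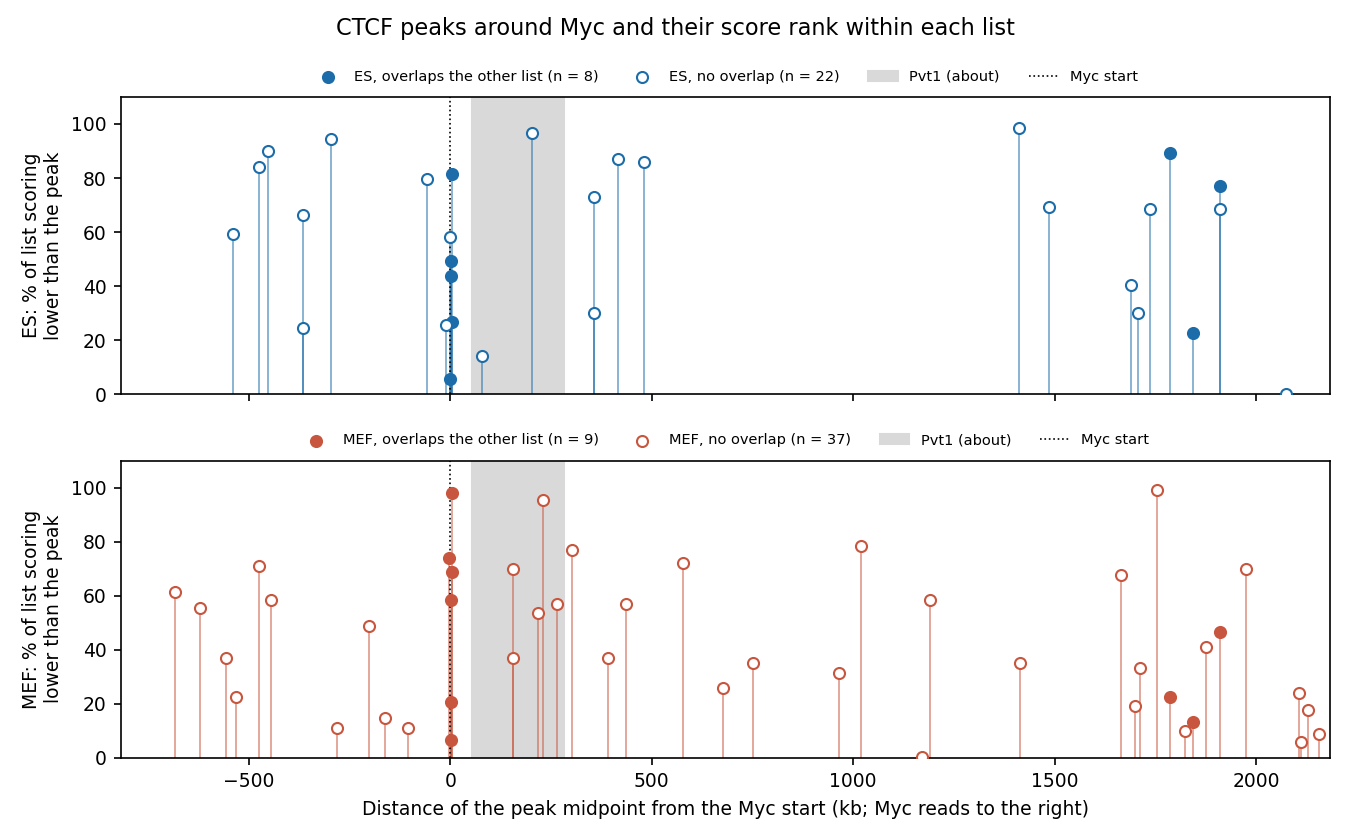
Every peak of the region by distance from the Myc start (kb, horizontal) and by the percentage of its list that scored lower (vertical), ES above and MEF below. Filled points overlap the other list; they stand at Myc and between 1786 and 1911 kb, and the ES panel is empty between 480 and 1412 kb.

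Pvt1 carried peaks in both cell types, at different places. The 2 ES peaks in it were at 61895325 to 61895723, with rank 37790, and at 62018687 to 62019085, with rank 1447. The second of these stood within the highest 3.32% of the ES list, and the nearest MEF peak was 15.2 kb away. The 5 MEF peaks in Pvt1 started at 61972690, 61973275, 62033892, 62046779 and 62081221. The highest-ranked of them, at 62046779 to 62047177, ranked 2354, within the highest 4.51% of the MEF list, and the nearest ES peak was 28.1 kb away. The other 4 ranked between 15626 and 32804. None of these peaks was shared, and 0 of 5 MEF peaks allows a shared part of up to 60.0% by the limit of 3 counts (43.4% by the Wilson interval). For the 2 ES peaks the Wilson interval reaches 65.8%. In the whole lists, 26.1% of ES and 21.6% of MEF peaks were shared, so the lack of overlap does not set Pvt1 apart. The ends of Pvt1 are known only to about 10 kb, but no peak of either list lay that close to them, so the counts do not rest on their exact position.

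Away from the gene, peaks were few in both cell types. Counted in bins of 250 kb from the Myc start, the 3 upstream bins held 1, 5 and 3 ES peaks and 4, 3 and 4 MEF peaks, from the farthest to the nearest. The remaining 67 kb up to the region's edge held none. The only shared peaks upstream were the pair next to the gene, 1 of 9 peaks in ES cells (11.1%, 1.99 to 43.5) and 1 of 11 in MEFs (9.09%, 1.62 to 37.7). Both intervals include the shared part of the whole list, 26.1% for ES and 21.6% for MEF peaks. The pair next to the gene was no longer shared when an overlap of 50% of both peaks was required.

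The first downstream bin was the fullest of the region. It held 7 ES and 9 MEF peaks, with 4 and 5 shared, all of these within the gene. Of its peaks, 5 ES and 5 MEF peaks lay inside the gene, where merging overlapping peaks of a list left 3 and 2. The bins were not recounted with merged peaks. The bin from 250 to 500 kb held 4 peaks of each cell type and none shared. In the next 3 bins, from 500 to 1250 kb, there was no ES peak, while MEFs had 2, 2 and 3 peaks. From 1250 to 1500 kb there were 2 ES peaks and 1 MEF peak, and from 1500 to 1750 kb there were 3 of each. The bin from 1750 to 2000 kb held 4 ES and 7 MEF peaks, with 3 shared in each list. The last 183 kb held 1 ES peak and 4 MEF peaks, none shared.

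Taking both directions, the 11 full bins had a median of 3 peaks in either cell type. MEFs had more peaks than ES cells in 7 bins, fewer in 2 and as many in 2. The equal medians depend on the edges of the bins. In 12 bins counted from the region's start, the median was 1 ES peak and 3.5 MEF peaks, and MEFs had more peaks in 9 bins. The whole MEF list holds 1.21 peaks per ES peak, and the bins were not recounted with lists of equal length. Downstream of the Myc start, shared peaks were 7 of 21 in ES cells (33.3%, 17.2 to 54.6) and 8 of 35 in MEFs (22.9%, 12.1 to 39.0). These intervals include the values of the whole lists, 26.1% for ES and 21.6% for MEF peaks. They also overlap the intervals upstream, and a difference between the sides was not tested. Of the shared peaks downstream, 4 ES and 5 MEF peaks lay inside the gene. Without the peaks within 50 kb of Myc, 3 of 16 ES peaks (18.8%) and 3 of 30 MEF peaks (10.0%) downstream were shared. Upstream it was then 0 of 7 and 0 of 10.

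**Figure D3:**
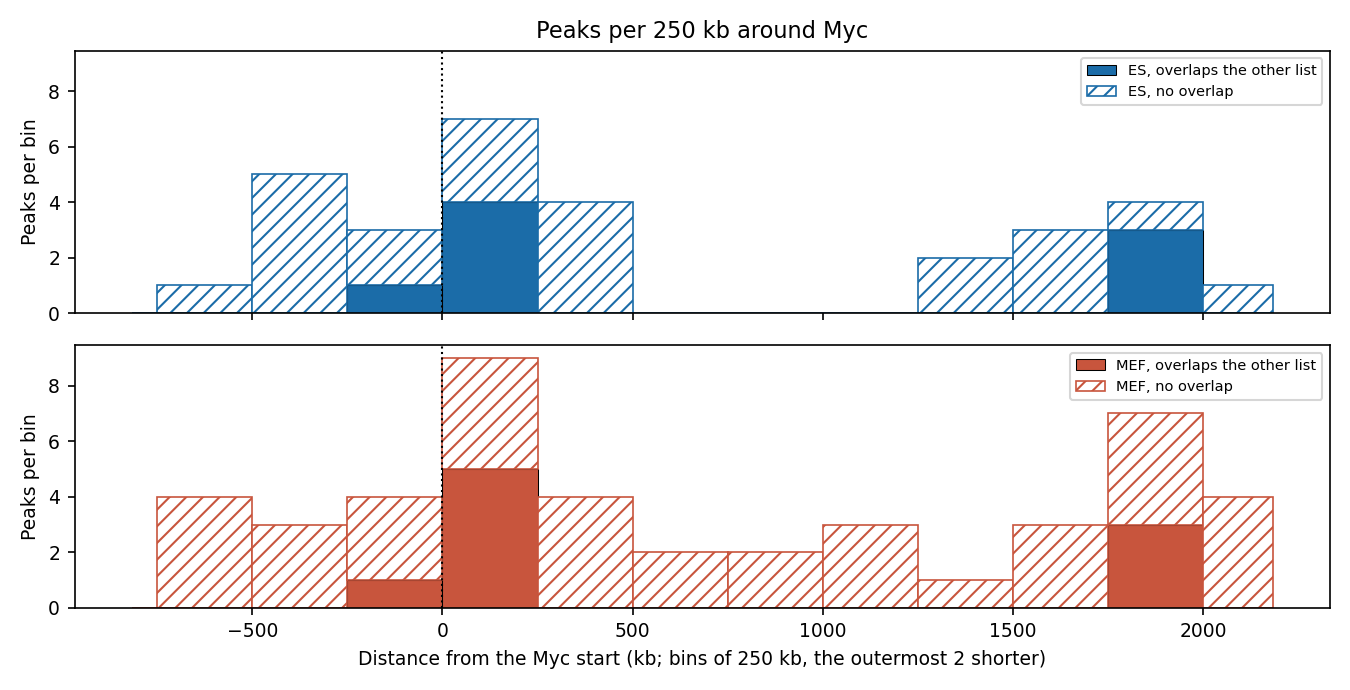
Number of ES peaks (upper) and MEF peaks (lower) per 250 kb bin counted outward from the Myc start, by distance (kb); solid parts overlap the other list and hatched parts do not. ES bins between 500 and 1250 kb are empty, and solid parts stand at Myc and in the bin from 1750 to 2000 kb.

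The desert downstream of Pvt1 contained a long stretch with no ES peak. It ran over 932 kb, from the peak at 62296910 to 62297308, which ranked 6181 in ES cells, to the peak at 63229019 to 63229417, which ranked 708. Among the 43504 distances between neighbouring ES peaks on autosomes, 77 were at least as long, and 4 of these were on chromosome 15. The stretch was picked as the longest of the 29 such distances in the region. Their median was 57.0 kb, against 21.6 kb on autosomes. In MEFs 7 peaks lay inside this stretch. They ranked between 11249 and 53443 of 53736, so that the first of them by rank stood within the highest 21.6% of the MEF list. The highest-ranked of them was at 62836712 to 62837110, 1020 kb from Myc, and was 392 kb away from the nearest ES peak.

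The longest stretch without a MEF peak was far shorter, at 250 kb. It began at the MEF peak at 63230821 to 63231219, with rank 33863, and ended at the one at 63481266 to 63481664, with rank 16748. A single ES peak lay in it, at 63303930 to 63304328, with rank 13299. Of 52201 distances between neighbouring MEF peaks on autosomes, 1164 were at least as long. It was likewise picked as the longest of 45 in the region, with a median of 40.9 kb against 21.6 kb on autosomes. The ES stretch ended and the MEF stretch began at nearly the same place, 1412 and 1414 kb from Myc, where the ES and MEF peaks lay 1.80 kb apart without overlapping.

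The peak that closed the ES stretch was also the highest-ranked ES peak of the region. With rank 708 it stood within the highest 1.62% of the ES list. The next ES-only peaks by rank outside Pvt1 were upstream, at 61521012 to 61521410 with rank 2478 and at 61363849 to 61364247 with rank 4425. They lay 296 and 453 kb before the Myc start, with the nearest MEF peaks 15.4 and 8.51 kb away. Among MEF-only peaks outside Pvt1, the highest-ranked was at 63572078 to 63572476, 1755 kb downstream, with rank 579 of 53736. It was 18.8 kb from the nearest ES peak. The next were those at 62836712, with rank 11249, and at 62117740 to 62118138, with rank 12007, the latter just beyond Pvt1.

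In the highest 10% of their list stood 3 of the 30 ES peaks of the region, all ES-only, and 3 of the 46 MEF peaks. Of these MEF peaks, 2 were MEF-only and the third was the peak near the end of Myc. By construction, 4424 of all 44424 ES peaks and 5351 of all 53736 MEF peaks stood there, so these counts do not set the region apart. In the whole lists, 50% of such ES peaks and 55.3% of such MEF peaks were shared, and 3 peaks per cell type are too few to tell the region from that. The median ES peak of the region stood at the highest 32.6% of its list, against 50.8% for the median of all ES peaks. The median MEF peak of the region stood at the highest 61.0%, against 51.4% for all MEF peaks. Within the region, ES-only peaks had a median at the highest 31.4% and shared ES peaks one at 53.5%. In the whole ES list the order was the other way, with 54.0% for ES-only and 40.8% for shared peaks. For MEF peaks the order was the same in the region and in the whole list. Shared MEF peaks had a median at the highest 53.3% in the region, and MEF-only peaks one at 63.0%. In the whole MEF list these were 29.1% and 55.2%. The ES medians rest on 22 and 8 peaks in the region, and 5 of those 8 lay within 50 kb of Myc. The MEF medians rest on 37 and 9 peaks. All are given as a description.

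MEF-only peaks of the region lay farther from any ES peak than those of the whole list. Of 37 MEF-only peaks, 6 had the midpoint of an ES peak within 10 kb (16.2%, 7.65 to 31.1), against 39.2% of all MEF-only peaks. The median distance was 37.0 kb, against 15.5 kb in the whole list. Of 22 ES-only peaks, 8 had a MEF peak that close (36.4%, 19.7 to 57.0), against 47.7% of all ES-only peaks. ES peaks were also sparser in the region than elsewhere, and the part that density plays in these distances was not tested. Within 2 kb, 4 of the 22 ES-only peaks (18.2%) had a MEF peak, against 14.7% of all ES-only peaks. For MEF-only peaks it was 2 of 37 (5.41%), against 11.9%.

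Both cell types had fewer peaks per Mb in the region than on chromosome 15 as a whole. ES cells had 10.0 peaks per Mb against 18.1 on the chromosome, and MEFs had 15.3 against 21.8. Outside the 50 kb on either side of the Myc start the density was 7.93 ES and 13.8 MEF peaks per Mb. There were 1.53 MEF peaks per ES peak in the region (95% exact interval 0.947 to 2.52), and this interval includes the ratio of 1.20 on chromosome 15. Among 806 windows of 3 Mb on the autosomes, the median was 44 ES peaks (quartiles 24 and 72) and 60 MEF peaks (quartiles 36 and 83). As few ES peaks as in the Myc region, or fewer, were found in 262 windows, and for MEF peaks in 294. The region thus lay below the median and within the quartiles in both cell types.

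**Figure D4:**
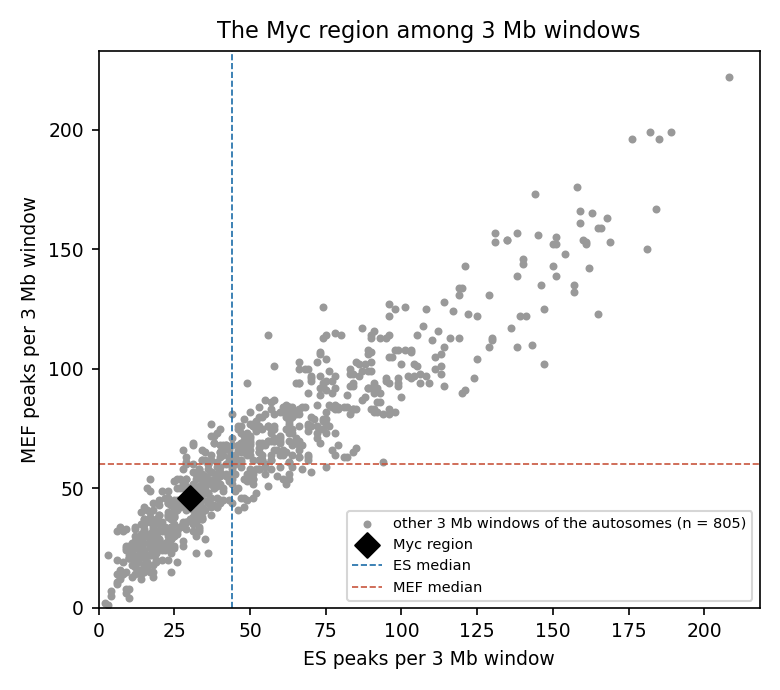
ES peaks (horizontal) against MEF peaks (vertical) in 806 windows of 3 Mb on the autosomes, with dashed lines at the medians. The diamond is the Myc region with 30 ES and 46 MEF peaks, below both medians of 44 and 60 and inside the cloud of other windows.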

How the data were processed

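Per the labels, chromatin was sonicated, immunoprecipitated and sequenced on an Illumina Genome Analyzer. Build mm9 comes from the submitters' processing notes. Aligner, peak caller, threshold and control: not given in the sources used here. The authors deposited 1 peak list per library, each with a whole-number score that neither the labels nor the files define. The lists have no header. Starts were read as counting from 0 and are printed with 1 added. Should they already count from 1, the true start is 1 base to the left of the printed one.

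Region, Myc and Pvt1 positions and the 50 kb and 250 kb distances were part of the definition of the region. The region and the lists of peaks to name were chosen with earlier results of these data known. Peaks named singly were all peaks within 50 kb of the Myc start or in Pvt1, other shared peaks, the 3 highest-ranked ES-only and MEF-only peaks elsewhere, and the ends of the longest stretch without a peak. Shared counts were computed in Python 3.11.15 (numpy 2.4.6, pandas 2.3.3), checked with bedtools 2.31.1 and tested on simulated data. Intervals (scipy 1.17.1) are Wilson for shares and exact binomial for ratios. With 1 library per cell type there was no test and no p-value. Alternatives were an overlap of 50% of both peaks, midpoints within 500 bp, the higher-scoring 50% of each list, the MEF list shortened by score to as many peaks as the ES list, merged peaks, a wider region and other bin edges. Peak sequences, motifs and exons were not analysed here, since no mm9 genome or annotation was used.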

Additional observations from a re-analysis of the deposited data

How the results depend on the processing

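Under the alternatives, 49 of 67 values fell inside the counting interval of the reported value (for numbers of peaks, within 1.5 times) and 18 moved beyond it. With the higher-scoring 50% of each list, 19 ES and 20 MEF peaks remained in the region and 3 ES peaks within 50 kb of Myc. Numbers of peaks fall under that choice by construction, so their moves say little about the processing. The shared part of ES peaks was then 10.5% in the region and 15.4% downstream of the Myc start. Upstream, the shared part was 0% of ES and 0% of MEF peaks with that choice, with an overlap of 50% of both peaks, and without the peaks within 50 kb of Myc. Leaving out those peaks, an alternative added after seeing the data, gave shared parts of 13.0% (ES) and 7.5% (MEF) in the region and 10.0% of MEF peaks downstream. Merging overlapping peaks left 3 MEF peaks within 50 kb of Myc and, added after seeing the data, 3 ES and 2 MEF peaks inside the gene. With bins counted from the region's edge the median of ES peaks per bin was 1 instead of 3 (also added after seeing the data), and the fullest bin held 17 peaks instead of 16. No value moved beyond these limits with midpoints within 500 bp, with the MEF list shortened to as many peaks as the ES list, or with the region widened by 250 kb at both ends. No paired analysis was possible because there was a single library of each kind. The part that sequencing depth plays was not tested, as depth is unknown.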
